A study of Mus musculus with 24 samples.

Results

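Liver RNA was compared between 5 mice with a hepatocyte-specific PPARgamma knockout and 5 control mice, all of which had received the PPARgamma agonist rosiglitazone. All 10 mice ate a HFCF diet for 34 weeks, and the labels class them as mice with NASH (nonalcoholic steatohepatitis, a fatty and inflamed liver). Rosiglitazone maleate was in that diet for the last 8 weeks. The knockout was induced after 24 weeks of diet and so had lasted 10 weeks. The knockout group is written HF_TZD_KO and the control genotype HF_TZD_C, with mice numbered 1 to 5 in each. These 10 libraries, chosen by their labels alone and 1 per mouse, are 10 of the 24 in the series. Of the rest, HF_KO and HF_C are the same 2 genotypes on the same diet without the drug, with 5 adult mice each. LF_C holds 4 adult mice of the control genotype on a LFCF diet, labelled healthy. RNA came from whole liver. The strain, the sex, the driver of the deletion and the exons it removes are not given in the sources used here.

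PPARgamma is a nuclear receptor that pairs with the retinoid X receptor and is best known as the main regulator of fat cell formation. Rosiglitazone, a thiazolidinedione, binds and activates it. In liver cells that store fat, PPARgamma is known to promote uptake of fatty acids and the coating of lipid droplets, while the related receptor PPARalpha is the main regulator of fatty acid oxidation there. The comparison asks what losing the hepatocyte receptor changes in livers exposed to its agonist.

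The 24 libraries held 19.5 to 28.7 M counted reads. HF_TZD_KO libraries had a lower mean, with 21.2 ± 1.58 M reads (SD, n = 5) against 24.8 ± 2.44 M (SD, n = 5; two-sided exact permutation test, p = 0.0476, where 0.00794 is the smallest p this design allows). The ranges overlapped, and p was 0.0635 to 0.0952 when any of 8 of the 10 libraries was left out. Alb, the defining hepatocyte transcript, made up 3.06 to 7.2% of the counts of every library. HF_TZD_KO 5 stood apart from the other 9 libraries compared here. On the first principal component of the 10 libraries, which held 44.5% of the variance, it scored 70.7, while the other HF_TZD_KO libraries scored 10.7 to 25.9 and the controls -39 to -21. Counts are therefore also given without it for the whole comparison and for many of the gene lists. Levels below are counts-per-million values (CPM) after scaling by trimmed mean of M-values (TMM). They are not divided by gene length, so they compare libraries and not genes with each other.

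A gene is said to have passed when its adjusted p was under 0.05 in edgeR's quasi-likelihood test, with Benjamini-Hochberg adjustment over all genes tested. Of 14602 genes tested, 2387 (16.3%) passed, 1246 (8.53%) higher and 1141 (7.81%) lower in HF_TZD_KO. These 8.53% and 7.81% are the background for counts of list members in this fit. Counts with a library left out, without the drug, of the difference, by DESeq2 or at an unadjusted p have other backgrounds. Of the 2387 genes, 524 differed by at least 1 on the log2 scale, 253 of them higher and 271 lower. Without HF_TZD_KO 5, 2390 genes passed (16.2%; 7.71% higher and 8.45% lower), and 2087 genes passed in the same direction with and without that library. Without HF_TZD_C 2, 1569 passed. Scaling by library totals alone, in place of TMM, moved the median log2 fold change of all tested genes from 0.0 to -0.16 and the share of passing genes that were higher from 52.2% to 20.2%. All changes are therefore relative to the bulk of the genes.

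Pparg itself (ENSMUSG00000000440, chr6:115361221-115490401, build GRCm38) was higher, not lower, in the libraries labelled knockout. It had 56, 38.9, 62, 44.3 and 31.7 CPM in HF_TZD_KO 1 to 5 and 24.5, 25.5, 30.6, 26.5 and 27.7 CPM in HF_TZD_C 1 to 5. Every library labelled knockout lay above every control, and the log2 fold change was 0.79 (SE 0.16, adjusted p = 0.0042). Without the drug the difference had the same direction, with 64.1 ± 5.32 CPM in HF_KO and 32.4 ± 2.66 CPM in HF_C (SD, n = 5 each; log2 fold change 0.99, adjusted p = 4.5e-05). A count per gene includes reads from exons outside a deletion and from cells other than hepatocytes, so it does not test whether the deletion was present. HF_TZD_KO below means the libraries labelled knockout. Of the other 17 tested genes on a list of PPAR and RXR receptors and their coregulators, Ppargc1a, a coactivator of oxidative metabolism, passed (log2 fold change 0.53, adjusted p = 0.0122). Ppara had a log2 fold change of 0.14 and did not pass.

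Many genes tied to PPARgamma in lipid uptake and storage were lower in HF_TZD_KO. Of 37 tested members of a list of such genes (39 in the tables), 18 were lower and 3 higher, against 7.81% and 8.53% of all genes tested, and the list's median log2 fold change was -0.41 where that of all genes was 0.0. Without HF_TZD_KO 5 there were 21 lower and 3 higher. Cfd (ENSMUSG00000061780, chr10:79890853-79892656), which encodes the serine protease adipsin and was on this list, had 205, 133, 119, 103 and 102 CPM in HF_TZD_C 1 to 5 and 1.87, 6.5, 1.97, 0.734 and 0.41 CPM in HF_TZD_KO 1 to 5. The highest HF_TZD_KO library was far below the lowest control. The log2 fold change was -5.80 (SE 0.49, adjusted p = 1.1e-05).

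Lipid-binding and droplet proteins were lower too. Fabp4 (ENSMUSG00000062515, chr3:10204347-10208576), a fatty acid carrier that is abundant in fat cells and macrophages, had 657, 551, 518, 417 and 566 CPM in HF_TZD_C 1 to 5 and 38.9, 65.1, 63.3, 31 and 13.6 CPM in HF_TZD_KO 1 to 5. Plin4, a perilipin that coats droplets, had 222, 205, 245, 222 and 204 CPM in the controls and 35.4, 27.3, 20.9, 26 and 12.5 CPM in HF_TZD_KO. Cidec, which drives droplet fusion, had 238, 222, 235, 222 and 247 CPM against 69.4, 31.7, 52.4, 39.2 and 16.9 CPM. In none of these genes did the groups overlap, and HF_TZD_KO 5 was the lowest library in each. The log2 fold changes were -3.67 for Fabp4 (SE 0.35, adjusted p = 2.3e-05), -3.16 for Plin4 (SE 0.21, adjusted p = 2.1e-06) and -2.47 for Cidec (SE 0.28, adjusted p = 8.1e-05). Cidea, a related droplet protein typical of brown fat, fell by 3.47 on the log2 scale (adjusted p = 6.4e-05).

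Several genes of lipid uptake fell as well. Cd36, the fatty acid translocase, had 475, 550, 581, 574 and 522 CPM in HF_TZD_C 1 to 5 and 353, 229, 310, 330 and 247 CPM in HF_TZD_KO 1 to 5. The groups stayed apart (log2 fold change -0.88, SE 0.12, adjusted p = 0.00035). Vldlr, a receptor for triglyceride-rich lipoproteins, fell by 1.70 on the log2 scale, and Lpl, the lipase that frees fatty acids from them, fell by 1.47. Slc27a2, a fatty acid transport protein with a higher CPM than these, was 940 to 1410 CPM against 1260 to 1480 CPM and did not pass (log2 fold change -0.20, adjusted p = 0.271). Lpl also stands on the list of lipid-associated macrophage genes below. Among the enzymes of triglyceride formation and droplet budding, Gpd1 (log2 fold change -1.35), Mogat1 (-1.99), Fitm1 (-1.19) and Fitm2 (-1.04) all fell, and so did Pnpla2, the main triglyceride lipase (-0.96). The 3 members that rose were Cideb (0.77), Lpin1 (1.56) and Pnpla3 (1.77). The libraries were not strand specific, so overlapping genes share reads. Of the exon bases of Cideb, 71.0% overlap Nop9, and of those of Mogat1, 15.4% overlap BC035947. Plin2, the most general droplet coat protein, was 506 to 864 CPM against 843 to 1020 CPM and missed the threshold (log2 fold change -0.39, adjusted p = 0.0505). Acsl1 and Ucp2 passed (-0.48 and -0.69) but lost their calls when any of 6 libraries was left out.

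**Figure D1:**
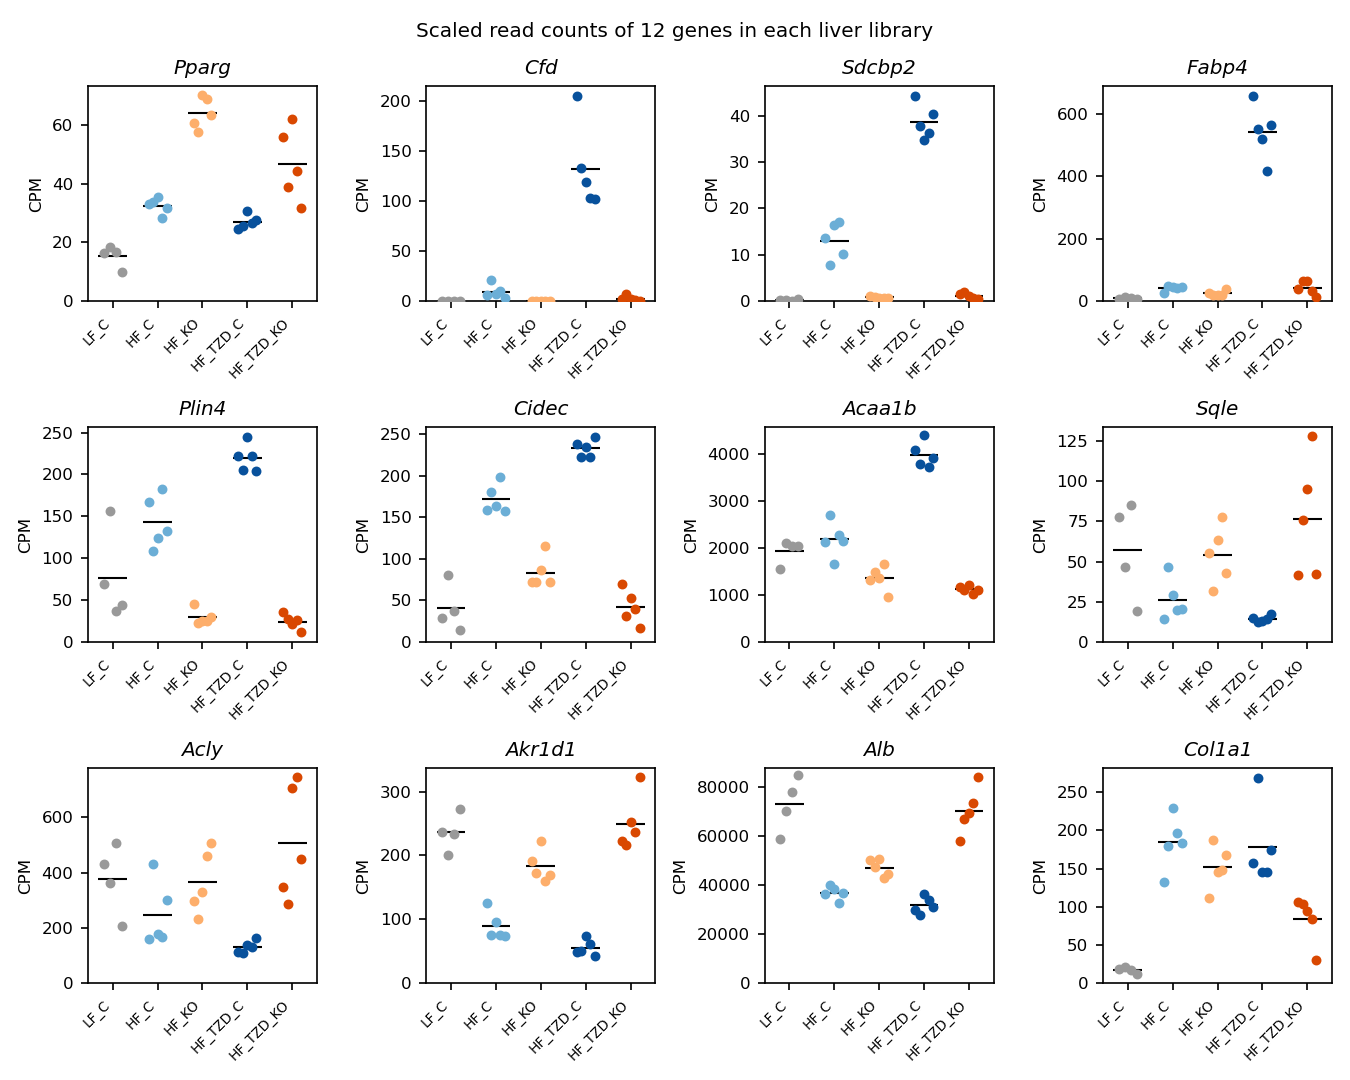
Scaled CPM (vertical axes, linear from 0) of 12 genes in each library of the 5 groups. Points are mice and horizontal lines are group means. Sdcbp2, Fabp4, Plin4 and Cidec were high in HF_TZD_C and low in HF_TZD_KO, Pparg was higher in both groups labelled knockout, and Sqle and Alb were higher in HF_TZD_KO than in HF_TZD_C.

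Fat cells also express many of these genes, so fat-cell markers were examined in the same libraries. Adipoq, which encodes the fat-cell hormone adiponectin, was at 0 in all HF_TZD_KO libraries and in 4 of 5 HF_TZD_C libraries, with 0.0701 CPM in HF_TZD_C 4. Retn (resistin) was at 0 in HF_TZD_KO and at most 0.251 CPM in the controls. Summed over the 7 adipocyte-defining genes in the tables, levels were 6.71 to 14.6 CPM in HF_TZD_KO and 8.61 to 15.8 CPM in HF_TZD_C, and these ranges overlapped. Adrb3 made up most of that sum. Without it, the other 6 genes summed to 0.103 to 0.839 CPM in HF_TZD_KO and 0.876 to 1.71 CPM in HF_TZD_C, so the groups were apart but near 0. Adig, the member behind much of this gap, was at most 0.0896 CPM against 0.386 to 1.14 CPM and had too few reads to test. The part of fat cells in the falls above was not tested. In whole liver, fewer cells of a type and less RNA per cell cannot be told apart. Lep was not analysed here.

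Beyond that list, the largest falls were in genes of varied function. The largest changes and smallest adjusted p named here and below were taken only from genes whose groups did not overlap. Their separation follows from that choice. Sdcbp2 (ENSMUSG00000027456, chr2:151572622-151590005), which encodes the scaffold protein syntenin-2, had 44.2, 37.8, 34.7, 36.2 and 40.4 CPM in HF_TZD_C 1 to 5 and 1.42, 1.97, 1.04, 0.734 and 0.513 CPM in HF_TZD_KO 1 to 5. No library came near the other group, and its fall (log2 fold change -5.05, SE 0.23, adjusted p = 9.7e-08) shared the smallest adjusted p with Vnn1 and Abcc3. Fabp3, a fatty acid carrier of heart and muscle, was 4.87 to 8.97 CPM in the controls and 0.0457 to 0.273 CPM in HF_TZD_KO (log2 fold change -5.55). Of its exon bases, 9.84% overlap Zcchc17. Other large falls were in the sodium channel subunit Scnn1g (-4.45), the proton channel Otop1 (-4.21), the potassium channel Kcnk3 (-3.63) and Kbtbd11 (-3.55). Mup17 (-4.40) and Mup15 (-4.08), major urinary proteins, also fell, but the near-identical Mup genes may exchange reads. Clstn3, a calsyntenin, fell from 90.9 to 104 CPM in the controls to 15.7 to 25.2 CPM (-2.29, adjusted p = 1e-07).

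The largest rises outside the lists were also spread over functions. Lrtm1 had 13.7, 9.68, 18.5, 8.02 and 22.4 CPM in HF_TZD_KO 1 to 5 and 0.179, 0.819, 1.33, 0.316 and 0.472 CPM in HF_TZD_C 1 to 5 (log2 fold change 4.53, SE 0.43, adjusted p = 2.5e-05). Chrna4, a nicotinic acetylcholine receptor subunit, had 30.6, 34.1, 60.5, 70 and 44.5 CPM against 1.57, 2.42, 2.84, 2.49 and 5.5 CPM (4.03, SE 0.32, adjusted p = 6.9e-06). Both genes, picked among genes without overlap, were low in every control and well above that in every HF_TZD_KO mouse. The RNA-binding protein Rbm24 (3.82), the patatin-like lipase Pnpla5 (3.37), the hepcidin-family gene Hamp2 (2.73) and the peptidase Trhde (2.41) rose as well. Among rising genes with the smallest adjusted p, the uric acid pathway enzyme Urad was 40.7 to 46.9 CPM against 12 to 18 CPM (1.53, SE 0.11, adjusted p = 4.4e-06), and the vitamin C carrier Slc23a1 was 111 to 125 CPM against 62.9 to 72.5 CPM (0.81, adjusted p = 6.7e-06).

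Many genes of fatty acid oxidation and other known PPARalpha targets were also lower. Of 38 tested, 16 were lower (42.1%) and 2 higher (5.26%), against 7.81% and 8.53% of all genes. The median log2 fold change was -0.33, and without HF_TZD_KO 5 the counts were 19 and 2. Vnn1, a pantetheinase and classical PPARalpha target, had 302, 298, 291, 307 and 306 CPM in HF_TZD_C 1 to 5 and 68.9, 51.7, 69.1, 66.4 and 76.7 CPM in HF_TZD_KO 1 to 5. Both groups were tight and well separated (log2 fold change -2.17, SE 0.09, adjusted p = 9.7e-08). Acaa1b, the thiolase that ends a round of peroxisomal beta-oxidation, had 4080, 3790, 4400, 3730 and 3920 CPM in the controls and 1180, 1110, 1210, 1010 and 1110 CPM in HF_TZD_KO. It was lower in each of the 5 libraries (log2 fold change -1.82, SE 0.09, adjusted p = 1.5e-07), and 13.3% of its exon bases overlap Dlec1 on the other strand.

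The falls were uneven along the pathway. In peroxisomes, Ehhadh fell by 0.80 on the log2 scale, Hsd17b4 by 0.55 and the peroxisome division factor Pex11a by 0.97. In mitochondria, Acadm (-0.61), Acads (-0.39), Hadhb (-0.50) and the carnitine carrier Slc25a20 (-0.50) fell. Cpt1a, the gate for fatty acids into mitochondria, was 769 to 955 CPM against 753 to 810 CPM and did not pass (log2 fold change 0.12, and -0.04 when scaled by library totals). Cpt2, Acadvl, Acadl, Hadha and Acaa2 had log2 fold changes from -0.12 to 0.09 and did not pass either. Pdk4, which holds back glucose oxidation, fell by 1.34 (adjusted p = 0.00397). Fgf21, a fasting hormone, and Cyp4a14, a fatty acid hydroxylase, did not pass (log2 fold changes -0.35 and -1.0). The 2 members that rose were Creb3l3 (0.48), a transcription factor of the fasted liver, and Ppargc1a.

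Of the 37 gene lists, the largest share of rising genes was in cholesterol synthesis, the pathway under the transcription factor SREBP2. Of 25 genes tested, 24 were higher in HF_TZD_KO (8.53% of all genes were) and none was lower, with a median log2 fold change of 1.44, and without HF_TZD_KO 5 all 25 passed. The list covers nearly every step from acetyl-CoA to cholesterol, together with regulators of sterol balance such as Insig1, which holds SREBP precursors in the endoplasmic reticulum (1.5). In 23 of the 25 every HF_TZD_KO library lay above every control, against 6.93% of all genes (7.33% lay below).

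Sqle (ENSMUSG00000022351, chr15:59315077-59331192), which makes the first oxygenation step toward sterols, had 41.7, 76, 95.2, 128 and 42.3 CPM in HF_TZD_KO 1 to 5 and 15.2, 12.3, 13.3, 14.2 and 17.4 CPM in HF_TZD_C 1 to 5. Idi1, which interconverts the isoprene building blocks, had 33.2, 61.2, 75.1, 117 and 38.3 CPM against 11.5, 11.3, 12.4, 11.6 and 14.6 CPM. The controls varied little and the HF_TZD_KO mice spread widely but always above them. Their log2 fold changes were 2.41 (SE 0.28, adjusted p = 0.00011) and 2.40 (SE 0.29, adjusted p = 0.00014). The spread was shared between genes: HF_TZD_KO 4 was the highest of the 5 in 20 of the 25 genes and HF_TZD_KO 1 the lowest in 19. Summed over the list, the level was 3240, 4680, 4630, 5980 and 3630 CPM in HF_TZD_KO 1 to 5 and 2140 to 2410 CPM in the controls.

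**Figure D2:**
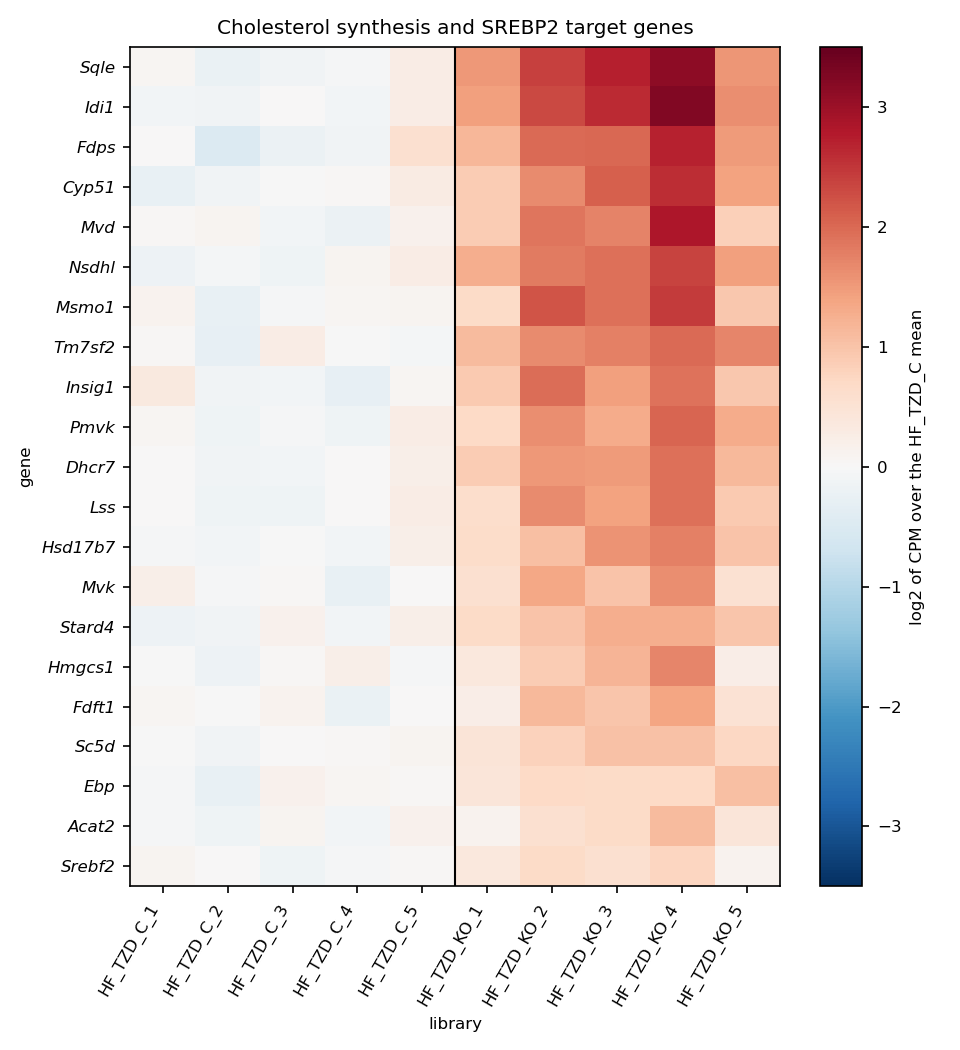
Each row is 1 of 21 of the cholesterol synthesis and SREBP2 target genes and each column 1 library. Colour gives the log2 of the gene's CPM over its HF_TZD_C mean, red for higher and blue for lower, and the line parts the groups. All 5 HF_TZD_KO columns are red for most genes, with HF_TZD_KO 4 darkest, and HF_TZD_C columns are near 0.

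Because these genes moved together, their promoters were searched for 3 short motifs in RefSeq windows of 250 bases before to 50 bases after each gene start (build GRCm38.p6, both strands). Windows matched 17 of the 25 genes and 10578 of the 14602 genes tested. The inverted CCAAT box ATTGG, which binds the factor NF-Y and often accompanies SREBP sites, was present in 16 of the 17 (94.1%), against 41.1% of 27025 genes with a window and 42.5% of those tested. The sterol element TCACNCCAC was present in 1 of the 17 (Hmgcs1) and in 1.44% of all genes. The 13-base direct repeat AGGNCANAGGNCA, of the kind PPAR dimers bind, was present in none of these 17, in none of 31 genes of the PPARgamma-linked list with a window, and in 0.451% of all genes. These motifs were chosen with the expression values known, and the shares are descriptions of the windows. They say nothing of binding, nor of sites elsewhere.

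Windows of 4 of these genes are shown, to mark where the box lies. Only windows that held a box were shown, so its presence in each follows from the choice. Each runs 5′ to 3′ on the gene's strand, and capitals mark ATTGG or its complement CCAAT. Idi1 lies at chr13:8885356-8885655 (plus strand) with boxes 45 and 14 bases before the start. Hmgcs1, a synthase early in the pathway, lies at chr13:119690101-119690400 (plus strand) with 4 boxes, the farthest 237 bases before the start. Cyp51, a sterol demethylase, lies at chr5:4104648-4104947 (minus strand) with 1 box 29 bases before the start. Insig1 lies at chr5:28071162-28071461 (plus strand) with 1 box 216 bases before the start.
Idi1: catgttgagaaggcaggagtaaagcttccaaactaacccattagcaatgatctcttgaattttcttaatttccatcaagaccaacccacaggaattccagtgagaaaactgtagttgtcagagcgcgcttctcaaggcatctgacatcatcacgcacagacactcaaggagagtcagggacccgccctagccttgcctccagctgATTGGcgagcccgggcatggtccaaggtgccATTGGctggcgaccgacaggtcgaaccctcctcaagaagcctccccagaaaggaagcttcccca
Hmgcs1: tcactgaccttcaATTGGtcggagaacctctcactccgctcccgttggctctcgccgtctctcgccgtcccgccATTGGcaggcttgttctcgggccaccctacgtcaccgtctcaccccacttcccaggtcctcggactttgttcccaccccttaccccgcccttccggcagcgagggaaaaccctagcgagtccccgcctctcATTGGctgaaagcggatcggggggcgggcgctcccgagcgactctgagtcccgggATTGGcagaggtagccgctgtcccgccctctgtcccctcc
Cyp51: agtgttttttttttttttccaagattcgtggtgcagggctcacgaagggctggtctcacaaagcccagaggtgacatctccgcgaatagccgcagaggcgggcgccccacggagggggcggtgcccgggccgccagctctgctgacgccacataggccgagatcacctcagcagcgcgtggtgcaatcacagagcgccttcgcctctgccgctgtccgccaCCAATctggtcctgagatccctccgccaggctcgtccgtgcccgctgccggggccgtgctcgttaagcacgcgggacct
Insig1: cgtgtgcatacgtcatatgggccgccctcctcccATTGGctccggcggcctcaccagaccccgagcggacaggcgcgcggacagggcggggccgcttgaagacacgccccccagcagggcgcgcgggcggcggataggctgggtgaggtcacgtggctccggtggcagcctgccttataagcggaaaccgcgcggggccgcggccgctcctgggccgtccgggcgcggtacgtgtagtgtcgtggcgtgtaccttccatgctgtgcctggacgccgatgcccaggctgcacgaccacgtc
Of the genes shown, Idi1 with 2 boxes had a log2 fold change of 2.40, Cyp51 with 1 box 1.84, Insig1 with 1 box 1.5 and Hmgcs1 with 4 boxes 0.97.

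Genes of fatty acid synthesis rose in part. Of 29 genes of fatty acid and triglyceride synthesis, 12 were higher and 1 lower, with a median log2 fold change of 0.35 and the same counts without HF_TZD_KO 5. Acly, which makes cytosolic acetyl-CoA from citrate, had 348, 286, 708, 747 and 448 CPM in HF_TZD_KO 1 to 5 and 111, 108, 138, 131 and 163 CPM in HF_TZD_C 1 to 5. Acss2, which makes it from acetate, had 177, 291, 323, 422 and 301 CPM against 66, 57.5, 78.5, 58.8 and 88.6 CPM. For both, every HF_TZD_KO library exceeded every control (log2 fold changes 1.97, SE 0.25, adjusted p = 0.00018, and 2.12, SE 0.20, adjusted p = 2.2e-05). The desaturase Fads1 (0.78), the acyltransferase Gpam (0.87) and the citrate carrier Slc25a1 (0.60) also rose. Fasn, the synthase itself, was 878 to 1970 CPM against 694 to 1000 CPM and missed the threshold (0.64, adjusted p = 0.0595). Scd1 was 29700 to 49900 CPM against 34700 to 44300 CPM, with a log2 fold change of 0.05 whose sign turned to -0.12 under scaling by library totals. Srebf1, which encodes the lipogenic SREBP, had a log2 fold change of -0.06. The 1 member that fell, Elovl7, an elongase, was 25.3 to 30.7 CPM in the controls and 2.41 to 6.8 CPM in HF_TZD_KO (-2.54, adjusted p = 6.9e-06).

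Genes of bile acid synthesis and transport moved in both directions, 11 higher (42.3%) and 3 lower (11.5%) of 26 tested. Of all genes, 8.53% were higher and 7.81% lower. Akr1d1, a reductase that shapes the bile acid ring, had 223, 216, 252, 236 and 323 CPM in HF_TZD_KO 1 to 5 and 48.1, 50.7, 73.1, 60.7 and 42.6 CPM in HF_TZD_C 1 to 5. Cyp7a1, the rate-limiting enzyme of bile acid synthesis, had 347, 409, 430, 537 and 588 CPM against 173, 299, 277, 204 and 131 CPM. Neither gene overlapped between groups (log2 fold changes 2.18, SE 0.15, adjusted p = 2.8e-06, and 1.09, SE 0.21, adjusted p = 0.00376). The uptake carriers Slc10a1 and Slco1a4 rose, by 1.28 and 1.68. Slco1b2, another uptake carrier, was 959 to 1810 CPM against 1070 to 1240 CPM and did not pass (adjusted p = 0.534). The export carriers Abcc4 and Abcc3 fell, Abcc4 by 1.22 and Abcc3 from 537 to 579 CPM in the controls to 158 to 200 CPM (-1.69, adjusted p = 9.7e-08). HF_TZD_KO 5 was the highest of the 5 in 22 of the 26 genes, and without it 10 were higher and 5 lower.

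Enzymes of amino acid and one-carbon metabolism mostly rose. In methionine and one-carbon metabolism, 15 of 21 were higher and 3 lower, with a median log2 fold change of 0.62. In the urea cycle and amino acid catabolism, 15 of 22 were higher and none lower, with a median of 0.60. Without HF_TZD_KO 5, the counts were 14 and 3 in the first list and 14 and 0 in the second. Gnmt, which disposes of surplus methyl groups, had 807, 1110, 1040, 1000 and 1290 CPM in HF_TZD_KO 1 to 5 and 359, 343, 485, 394 and 302 CPM in HF_TZD_C 1 to 5. Bhmt2, a homocysteine methyltransferase, was 246 to 260 CPM against 117 to 151 CPM. Ass1, of the urea cycle, had 2230, 2800, 2490, 2200 and 3190 CPM against 897, 1040, 1440, 1150 and 1110 CPM. Each was higher in all 5 HF_TZD_KO libraries than in any control (log2 fold changes 1.48, 0.93 and 1.20, adjusted p = 2.5e-05, 6.9e-06 and 0.0001). Cps1 (1.14), Prodh (1.16) and Pemt, which makes phosphatidylcholine from phosphatidylethanolamine (0.71), rose as well.

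Secreted and defining proteins of hepatocytes were higher. Of 27 hepatocyte identity genes, 17 were higher and none lower, with a median log2 fold change of 0.51, and 15 were higher without HF_TZD_KO 5. Alb had 58200, 66900, 69500, 73600 and 84200 CPM in HF_TZD_KO 1 to 5 and 30000, 27900, 36400, 34100 and 31200 CPM in HF_TZD_C 1 to 5 (log2 fold change 1.14, SE 0.16, adjusted p = 0.0004). It took 6.69 ± 0.575% of all counts in HF_TZD_KO and 3.40 ± 0.254% in HF_TZD_C (SD, n = 5 each; two-sided exact permutation p = 0.00794). Ttr (0.91), Ahsg (0.94), Serpina1a (0.98) and Apoh (0.93) rose likewise. In the apolipoprotein and VLDL assembly list, 12 of 25 were higher and 2 lower. Apoa4 was 779 to 1780 CPM against 251 to 403 CPM (1.93, adjusted p = 0.00019), and Apoc3, which restrains lipase action, was 1010 to 1130 CPM against 469 to 703 CPM (0.86). Apob and Mttp, which build the particle itself, did not pass (0.27 and 0.04).

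Drug-metabolising enzymes rose more often than they fell, 15 against 2 of 32 tested (background 8.53% and 7.81%). The counts were 14 and 5 without HF_TZD_KO 5, and 16 and 4 without HF_TZD_KO 2. HF_TZD_KO 5 was the highest of its group in 19 of the 32 genes. Cyp2c54 (3.24), Cyp2c29 (2.36), Cyp1a2 (2.05) and Cyp2a5 (1.74) rose, with the caution that near-identical Cyp2c genes may exchange reads. Cyp3a11, the main enzyme of its family in mouse liver, went the other way, with 3710, 3810, 4080, 3990 and 3450 CPM in HF_TZD_C 1 to 5 and 1470, 1460, 1300, 1290 and 1240 CPM in HF_TZD_KO 1 to 5. The groups were far apart (-1.49, SE 0.09, adjusted p = 1.4e-06).

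Genes known to be higher in male than female mouse liver depended on individual mice. Slco1a1, an organic anion carrier, had 34.7, 70.3, 298, 30.8 and 411 CPM in HF_TZD_KO 1 to 5 and 5.46 to 11.4 CPM in HF_TZD_C (log2 fold change 4.49, SE 0.72, adjusted p = 0.00103). Hsd3b5, a steroid enzyme, had 0.502, 0.672, 38, 0.105 and 59.8 CPM in HF_TZD_KO 1 to 5 and at most 0.172 CPM in the controls. It was not tested because too few libraries reached the minimum count of the filter. Mup7 had 1.05, 0.403, 122, 1.05 and 155 CPM against 0.819 to 5.08 CPM, and its call was lost when any of 7 libraries was left out. In all 3 genes HF_TZD_KO 3 and 5 stood far above the other mice of their group. Of the 22 male-biased genes tested, 8 were higher (36.4%, against 8.53% of all genes) and 2 lower (9.09%, near the 7.81% of all genes). Without HF_TZD_KO 5 the counts were 6 and 2.

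**Figure D3:**
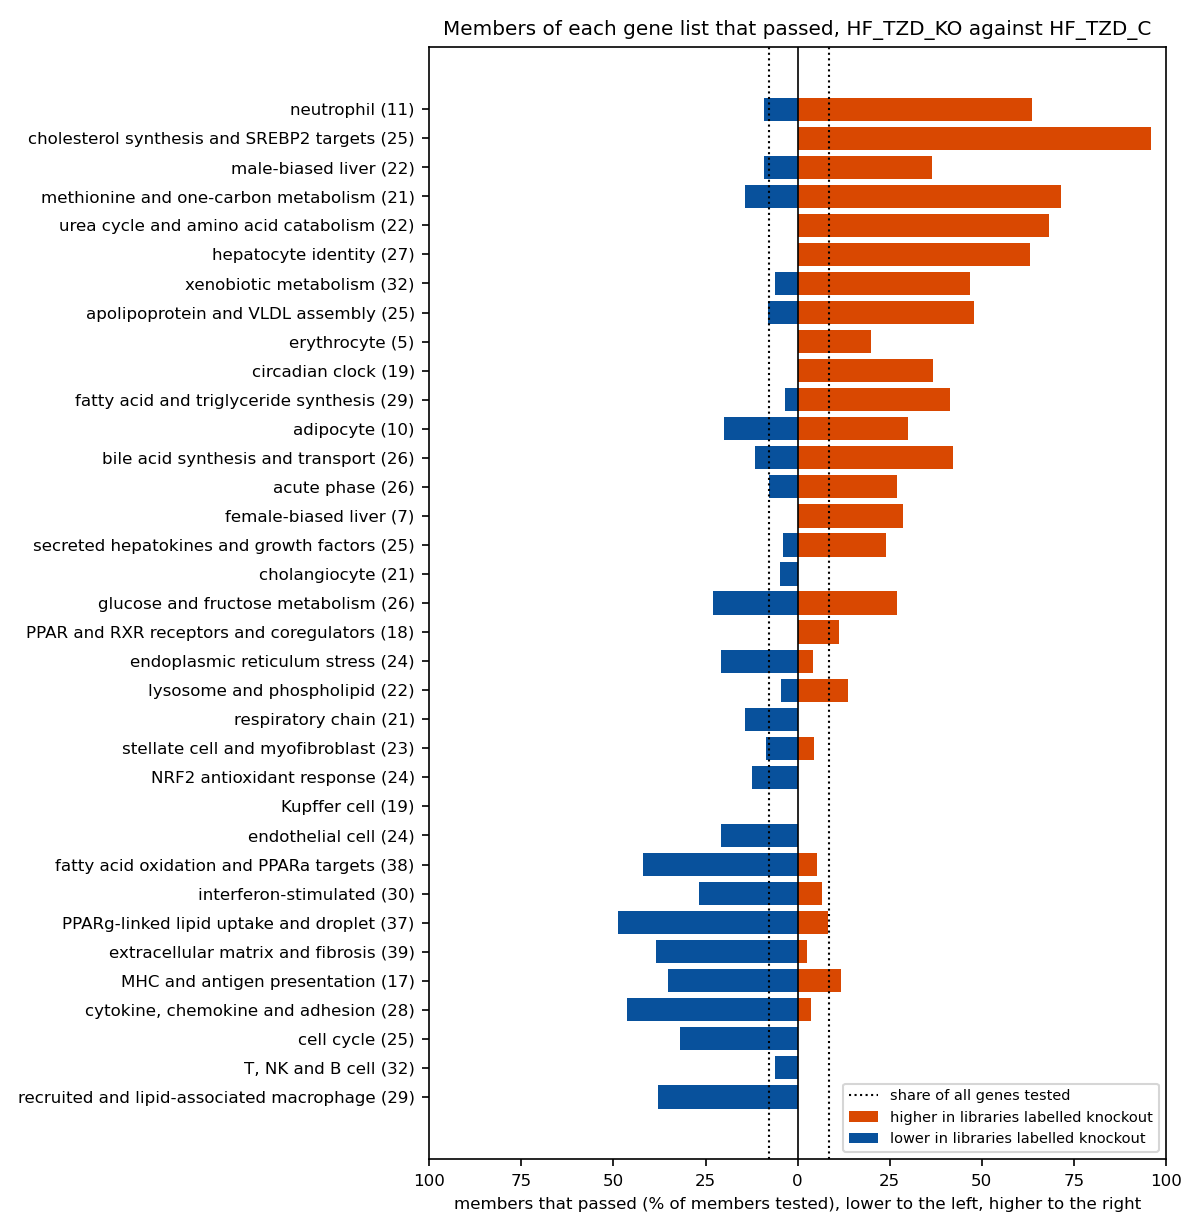
Bars show the percent of tested members of each gene list with at least 5 tested (number in brackets) that passed, higher in HF_TZD_KO to the right and lower to the left. Dotted lines mark the shares of all genes tested, 8.53% and 7.81%. Of the lists drawn, cholesterol synthesis reaches farthest to the right (96%) and the PPARgamma-linked list farthest to the left (48.6%).

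A number of matrix genes of fibrosis were lower, though several calls rested on 1 control. Of 39 tested, 15 were lower and 1, Col5a3, higher, with a median log2 fold change of -0.47. Without HF_TZD_KO 5 the counts were 17 and 1. Without HF_TZD_C 2 only 8 genes of the list passed. Col1a1, the main chain of fibrillar collagen, had 157, 269, 146, 146 and 174 CPM in HF_TZD_C 1 to 5 and 106, 104, 94.4, 83.4 and 30.3 CPM in HF_TZD_KO 1 to 5. The groups did not overlap, but HF_TZD_C 2 was high and HF_TZD_KO 5 low (-1.09, SE 0.28, adjusted p = 0.0206), and the call was lost without HF_TZD_C 2. Col3a1 fell by 1.19 on the log2 scale (adjusted p = 0.00772) and Timp1, an inhibitor of matrix proteases, by 1.20 (adjusted p = 0.00728). Both kept their calls whichever library was left out. HF_TZD_KO 5 was the lowest of its group in 33 of the 39 genes. Acta2, the actin of activated stellate cells, did not pass (-0.28). Of 23 stellate cell genes 2 were lower (8.7%) and 1 higher (4.35%), near or below the 7.81% and 8.53% of all genes.

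Of 29 tested genes of recruited and lipid-associated macrophages 11 were lower (37.9%, against 7.81% of all genes) and none higher, with a median log2 fold change of -0.72. HF_TZD_KO 5 was the lowest of its group in 24 of the 29. Without it 13 were lower and none higher, with a median of -0.51, and without HF_TZD_C 2 only 8 passed. Ccr2, the receptor that draws monocytes into tissue, had 32.8, 50, 28.2, 40.4 and 32.8 CPM in HF_TZD_C 1 to 5 and 16.8, 22.4, 17.4, 13.9 and 8.77 CPM in HF_TZD_KO 1 to 5. The groups did not overlap (-1.21, SE 0.22, adjusted p = 0.00214). The lectin Lgals3 fell by 1.26 on the log2 scale and the scavenger receptor Msr1 by 0.72. Trem2, a lipid receptor of these macrophages, did not pass (-0.73), at 4.21 to 24.7 CPM against 19.6 to 29.5 CPM. Of 19 Kupffer cell genes none passed by edgeR. At an unadjusted p under 0.05 there were 10, 9 lower and 1 higher, against 4466 of all 14602 genes. By DESeq2 6 passed, against 3065 of all genes. By edgeR 8 passed without HF_TZD_KO 4, 2 without HF_TZD_KO 2 (1 higher, 1 lower) and 3 without HF_TZD_KO 5 (all lower). Of all genes, 2171, 2695 and 2390 passed in these fits. Of 32 T, NK and B cell genes 2 were lower (6.25%, against 7.81% of all genes), Ptprc (-0.80) and Ms4a1 (-1.51), and Ptprc lost its call without HF_TZD_C 2. The list's median log2 fold change was -0.66, and all 32 genes had a log2 fold change below 0. Without Ighm, its highest member, the list summed to 50.9 to 129 CPM in HF_TZD_KO and 130 to 238 CPM in HF_TZD_C. These ranges nearly met, and HF_TZD_KO 5 had the lowest sum.

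Cytokine, chemokine and adhesion genes were lower in 13 of 28 cases and higher in 1, Il18. Without HF_TZD_C 2, 6 of the list passed in all. Ccl2, which attracts monocytes, was 3.36 to 5.42 CPM against 6.09 to 8.85 CPM (-0.79, adjusted p = 0.00538). Ccl4 (-1.35) and Tlr2 (-0.65) also fell and kept their calls with any library left out. Of 30 interferon-stimulated genes 8 were lower and 2 higher, but 2 to 6 of the list passed when any control or HF_TZD_KO 1, 3 or 4 was left out. Cd274, the checkpoint ligand PD-L1, was the member with the smallest adjusted p (-1.03, adjusted p = 0.0013). Of 17 genes of antigen presentation 6 were lower, all in the MHC class II pathway (such as Cd74, -0.85), and 2 higher. None of the 17 passed without HF_TZD_C 2, and 2 to 5 passed when any other control or HF_TZD_KO 3 or 4 was left out.

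Granule genes of neutrophils went the other way. Of 11 neutrophil genes tested (15 in the tables), 7 were higher (63.6%) and 1, Csf3r, lower (9.09%), against 8.53% and 7.81% of all genes. Without HF_TZD_KO 5 the counts were 6 and 2. Ngp, which encodes a granule protein, had 2.83, 2.51, 8.58, 7.92 and 8.1 CPM in HF_TZD_KO 1 to 5 and 0.179, 0.78, 0.258, 0.0351 and 1.55 CPM in HF_TZD_C 1 to 5. Ltf (lactoferrin) had 2.19, 2.24, 7.54, 6.61 and 6.31 CPM against 0.215, 0.156, 0.184, 0.491 and 1.07 CPM. In both genes HF_TZD_KO 3, 4 and 5 were the highest libraries and the groups were separate (log2 fold changes 3.46, SE 0.64, adjusted p = 0.00277, and 3.56, SE 0.54, adjusted p = 0.00067). S100a9 (1.73), S100a8 (1.59) and Camp (4.31) rose too. Lcn2, which hepatocytes also make, did not pass (-0.42), and Ly6g, Mpo and Elane had too few reads to test. Without HF_TZD_C 1, 5 of the list passed. The neutrophil gene sum without Lcn2 was 28.6 to 57.9 CPM in HF_TZD_KO and 21 to 36.6 CPM in HF_TZD_C, so the groups overlapped.

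Summed levels of the marker lists show how these changes ran beside each other. Hepatocyte genes summed to 107000 to 149000 CPM in HF_TZD_KO and 62000 to 74400 CPM in HF_TZD_C, and without Alb to 49000 to 64500 CPM and 34100 to 40300 CPM. Macrophage genes other than Apoe, which hepatocytes make in bulk, summed to 983 to 2270 CPM against 2330 to 3000 CPM. Kupffer genes summed to 824 to 1600 CPM against 1280 to 1660 CPM, endothelial genes to 570 to 895 CPM against 840 to 1150 CPM, and stellate genes to 574 to 1060 CPM against 847 to 993 CPM. HF_TZD_KO 5 was the lowest library for the stellate, Kupffer, endothelial, lymphocyte, neutrophil and cholangiocyte sums and the highest for hepatocyte genes. The part that cell makeup played in any gene's difference was not tested.

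**Figure D4:**
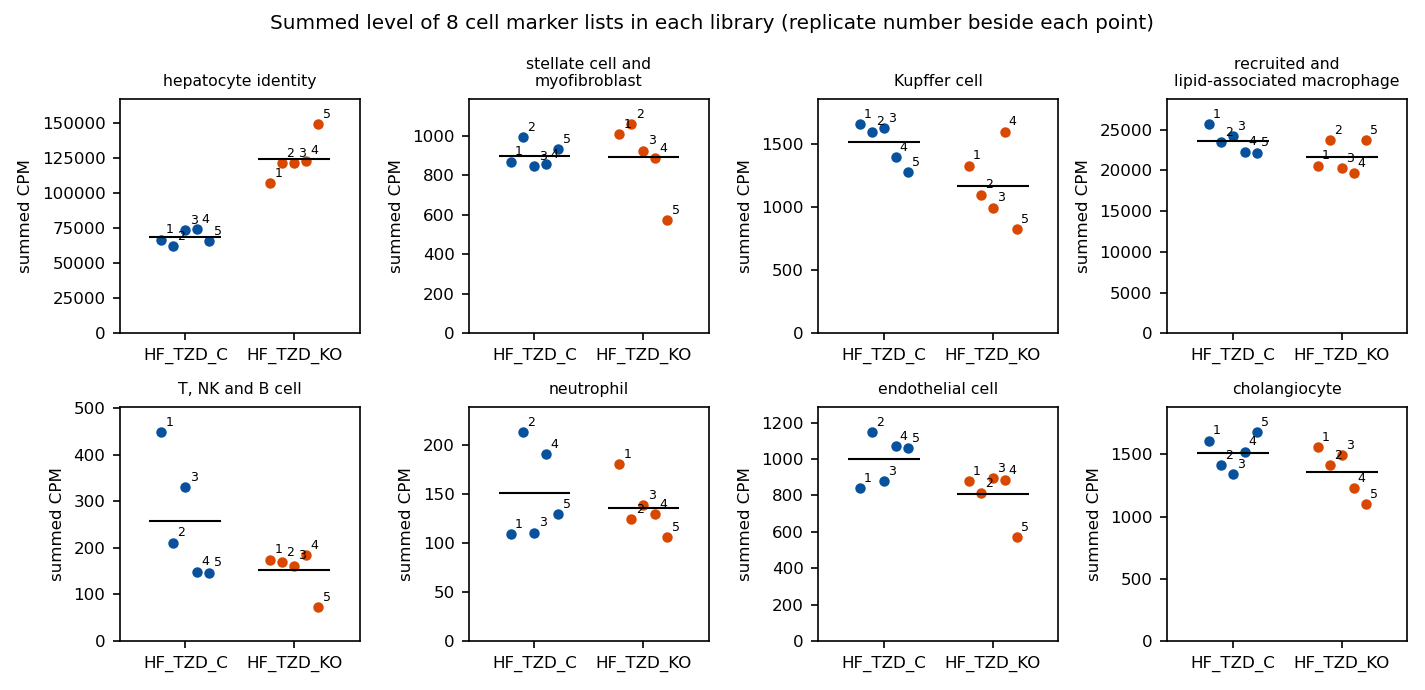
Summed CPM (vertical axes, linear from 0) of 8 cell marker lists in each HF_TZD_C and HF_TZD_KO library. Points carry the replicate number and horizontal lines are group means. The groups are apart for hepatocyte genes, at 107000 to 149000 against 62000 to 74400 CPM, and overlap in all other panels. Without Apoe, the macrophage sums were 983 to 2270 against 2330 to 3000 CPM. Without Ighm, the lymphocyte sums were 50.9 to 129 against 130 to 238 CPM. The stellate, Kupffer, neutrophil, endothelial and cholangiocyte sums still overlapped without their highest gene. HF_TZD_KO 5 is lowest in the stellate, Kupffer, endothelial, lymphocyte, neutrophil and cholangiocyte panels.

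The same genotypes without the drug gave a far shorter list. There, 152 of 14844 genes tested passed (1.02%), 72 higher (0.485%) and 80 lower (0.539%). The count was 64 to 186 with single libraries left out, lowest without HF_C 4; it was 85 without HF_C 5 and 101, 82 and 70 without HF_KO 1, 2 and 3. DESeq2 gave 387. Among 14469 genes tested in both settings, 135 passed in both, all in the same direction, which is 88.8% of the genes that passed without the drug and 5.71% of those that passed with it. The pairs of groups share no mice. Of the 135, 127 had the larger change under rosiglitazone. A test of the difference between the 2 knockout effects, in a fit of the 20 libraries, passed for 376 of 15365 genes (2.45%), 239 of them (1.56%) with a more positive effect under the drug and 137 (0.892%) with a more negative one. With single libraries left out the count was 191 to 467, lowest without HF_TZD_C 2.

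Some PPARgamma-linked genes passed in both settings, and for some the difference itself passed. Cfd fell by 5.77 on the log2 scale without the drug too, from 9.31 ± 6.94 to 0.167 ± 0.159 CPM (SD, n = 5 each), and the difference between settings did not pass (-0.02, adjusted p = 0.996). Cidea (-3.13) and Plin4 (-2.27) passed without the drug as well, and so did Cidec (-1.03, adjusted p = 0.00158), for which the difference passed too. Fabp4 instead was 40.5 ± 8.96 CPM in HF_C and 24.5 ± 7.59 CPM in HF_KO (-0.72, adjusted p = 0.13), far from the 542 ± 86.7 CPM of HF_TZD_C, and its difference between settings was -2.95 (adjusted p = 0.00134). Cd36 (-0.77), Vldlr (-1.55), Cidec (-1.43), Gpd1 (-0.71), Fitm2 (-0.57), Pnpla2 (-0.63) and Acot2 (-1.13) also differed between settings. These 8 are all that passed the test of the difference among 37 list members, each with the more negative effect under the drug, as 0.892% of all genes had.

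The same held for parts of the other lists. Of 38 fatty acid oxidation genes, 4 passed without the drug, where 1.02% of all genes did. The difference passed for 6, all more negative under the drug, as 0.892% of all genes were. Among the 6 were Vnn1, Acaa1b, Acadm, Ehhadh and Pex11a. Acaa1b, for example, was 3980 ± 269 CPM in HF_TZD_C and 1120 ± 75.7 CPM in HF_TZD_KO, and 2180 ± 375 CPM in HF_C and 1360 ± 258 CPM in HF_KO (SD, n = 5 each). Its drug-treated controls were the high group, while both knockout-labelled groups lay low. Alb was 73000 ± 11200 CPM in LF_C (SD, n = 4), 31900 ± 3360 CPM in HF_TZD_C, 70500 ± 9500 CPM in HF_TZD_KO, 36900 ± 2650 CPM in HF_C and 47200 ± 3520 CPM in HF_KO (SD, n = 5 each). Akr1d1 was 236 ± 29.6 CPM in LF_C, and 55 ± 12, 250 ± 42.9, 88.9 ± 21.7 and 184 ± 24.9 CPM in the same order of the other groups. For both genes the HF_TZD_KO mean lay within 1 SD of the LF_C mean and the drug-treated controls had the lowest mean of the 5 groups. Other genes did not lie near LF_C. Acaa1b was 1560 to 2110 CPM in LF_C and 1010 to 1210 CPM in HF_TZD_KO. Col1a1 was 11.5 to 20.9 against 30.3 to 106 CPM, and Pparg 10.0 to 18.4 against 31.7 to 62 CPM. The difference passed, more positive under the drug, for 8 of 22 urea cycle and amino acid genes and 7 of 21 methionine genes. It also did for 9 of 27 hepatocyte genes, among them Alb (0.80, adjusted p = 0.00976). Of all genes, 1.56% passed with a more positive effect.

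For cholesterol synthesis, the number of genes that passed the test of the difference depended on the tool. Without the drug none of the 25 genes passed by edgeR, 4 passed by DESeq2 and 22 had an unadjusted p under 0.05, all higher, with a median log2 fold change of 0.48. Sqle was 26.2 ± 12.7 CPM in HF_C and 54.2 ± 17.8 CPM in HF_KO, and 14.5 ± 1.96 CPM in HF_TZD_C and 76.7 ± 36.8 CPM in HF_TZD_KO (SD, n = 5 each). The gap between genotypes was wider with the drug by these means, but the difference for Sqle did not pass by edgeR (1.36, adjusted p = 0.109). By edgeR only Insig1 passed that test among the 25 (1.09, adjusted p = 0.0455), while 10 passed by DESeq2 and 21 had an unadjusted p under 0.05. For matrix genes the difference passed for none of 39 by edgeR and 1 by DESeq2, with 14 at an unadjusted p under 0.05. Over all 15365 genes, the difference passed for 376 by edgeR and 725 by DESeq2, with 2464 at an unadjusted p under 0.05. The knockout effect on matrix genes without the drug gave none by edgeR, 1 by DESeq2 and 3 at an unadjusted p under 0.05. Over all genes without the drug, 152 of 14844 passed by edgeR and 387 by DESeq2. The count over all genes at an unadjusted p is not given for that setting.

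**Figure D5:**
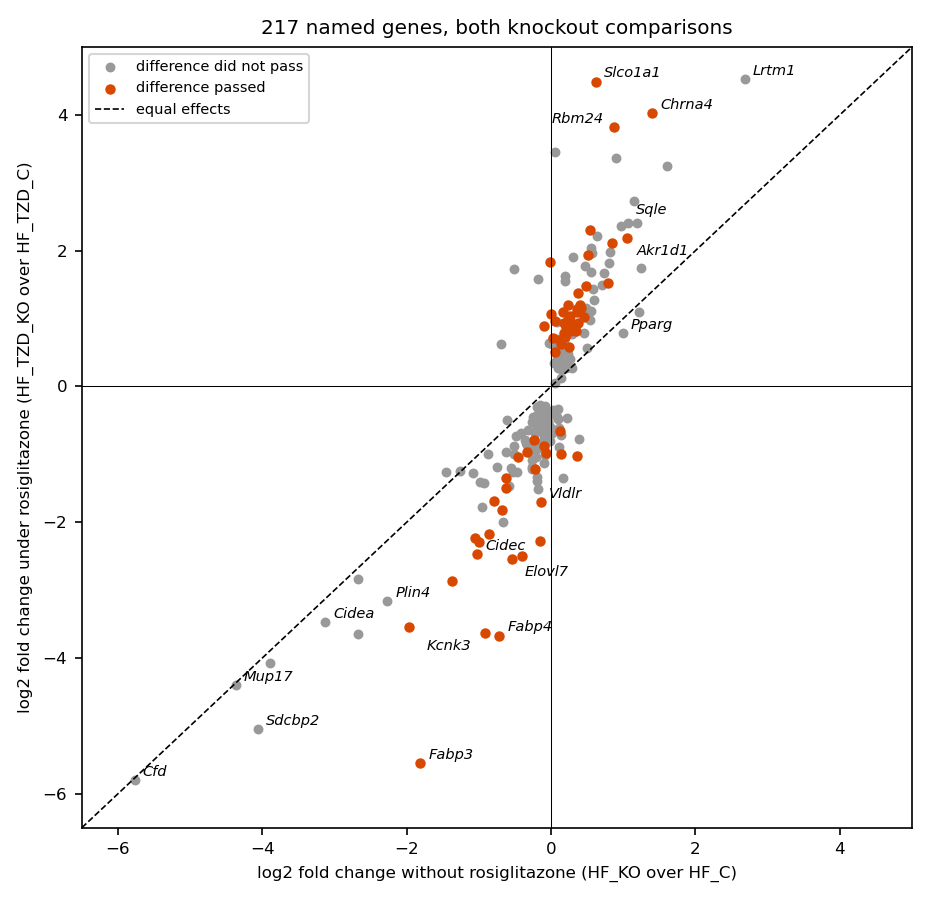
Log2 fold change of 217 named genes without the drug (horizontal) and under rosiglitazone (vertical). Orange points passed the test of the difference and the dashed line marks equal effects. The 70 orange points all lie farther from 0 under the drug, and Cfd, Mup17 and Pparg lie near the line. Genes were named mostly for their change under the drug, and some for a large difference that passed, so their place is a description.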

How the data were processed

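Whole liver RNA was measured by RNA-seq, with 1 library per mouse. Per the submitters' processing notes, reads were aligned with STAR 2.6.1 to GRCm38 and counted per gene with HTSeq 0.6.1; the annotation release is not given in the sources used here. The libraries were not strand specific, per the labels. The authors deposited 1 table per comparison, holding read counts per gene, a size-factor normalized signal, FPKM, gene length in bases, a log2 fold change and a p-value with its adjusted form. Only the deposited counts were used for the tests. The tables held 24137 genes in all, and no count differed between tables.

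The knockout effect under rosiglitazone was fitted with edgeR 4.0.16 (R 4.3.3) on the 10 libraries concerned: filterByExpr (minimum count 10, minimum total 15), TMM scaling, the quasi-likelihood test and Benjamini-Hochberg adjustment at 0.05. The effect without the drug was fitted the same way on HF_KO and HF_C, and the difference of the effects as an interaction in all 20 libraries. CPM shown are TMM-scaled over 24 libraries, and standard errors follow from the F statistic. Library measures were compared by exact permutation. Replicates differed by far more than counting error. The fitting scripts were tested on simulated counts.

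Alternatives were other scalings, DESeq2 1.42.0, other filters, equal depth, all 24 libraries, a replicate block and single libraries left out. The genes named are 24 chosen for their roles, the 12 largest changes in each direction among protein-coding genes without overlap and of at least 2 CPM, the 5 smallest adjusted p in each direction, called PPARgamma-linked genes, up to 5 called members per direction of each other list, and the 6 largest differences each way. Further list members were named with their values known. Members and the 37 gene lists were chosen with earlier results of these data known. Names not matched in the tables were not analysed here, and the values of a few genes are left unreported. The authors' deposited table gives 3038 genes at an adjusted p under 0.05, and 2383 of these passed here, all in the same direction.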

Additional observations from a re-analysis of the deposited data

Results flagged for a closer look

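Of 156 groups of 5 libraries tested for an outlying library, 9 had one. That is near the share that chance gives, about 1 in 20 groups. Of the 9, 3 were HF_TZD_KO 5. The first principal component score of HF_TZD_KO 5 was 70.7, while the others of its group scored 10.7 to 25.9. That library also stood apart for Rbm24, with 0.769 CPM against 3.98 to 5.21 CPM in its group, and for Trhde, with 7.85 CPM against 1.34 to 2.73 CPM. HF_TZD_KO 3 stood above its group for 2 major urinary proteins, Mup17 at 5.85 CPM against 0.472 to 1.54 CPM and Mup15 at 4.86 CPM against 0.179 to 1.05 CPM. HF_TZD_KO 2 had the most Cfd of its group, 6.5 CPM against 0.41 to 1.97 CPM. Among controls, HF_TZD_C 2 had 269 CPM of Col1a1 against 146 to 174 CPM, HF_TZD_C 4 had 0.491 CPM of Rbm24 against 0.179 to 0.234 CPM, and HF_TZD_C 1 had 1.61 CPM of the organic anion carrier family member Slc22a29 against 0.841 to 1.01 CPM.

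The knockout effect differed with and without rosiglitazone for 30 of the named genes held to this test, by the interaction term (log2, negative where the effect was more negative under the drug). Among lipid uptake, storage and carrier genes it was -0.77 for Cd36, -2.95 for Fabp4, -3.73 for Fabp3, -1.43 for Cidec, -0.71 for Gpd1, -0.57 for Fitm2, -0.63 for Pnpla2, -1.55 for Vldlr, -1.13 for Acot2, an acyl-CoA thioesterase, and -1.99 for Elovl7. Vnn1 (-1.30), Abcc3 (-0.89), Clstn3 (-1.28), the adhesion receptor Gpr64 (-1.48), Kcnk3 (-2.70) and Kbtbd11 (-1.57) also had more negative effects under the drug. So did Ubd, a ubiquitin-like protein of inflamed tissue (-2.11), and Themis, a T cell signalling gene (-2.09). Ubd was 3.28 to 20.1 CPM in HF_TZD_KO and 41.1 to 66.6 CPM in HF_TZD_C, and its log2 fold change without the drug was -0.15.

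More positive effects under the drug were found for Alb (0.80), Akr1d1 (1.14), Bhmt2 (0.55), Urad (0.75), Slc23a1 (0.48), Aldh16a1 (0.55), Slco1a1 (3.90), Slc22a29 (1.78), Chrna4 (2.65), Rbm24 (2.96), Ltf (5.05) and Avpr1a (1.86). Avpr1a, a vasopressin receptor of hepatocytes, was 13.6 to 25.7 CPM in HF_TZD_KO and 4.02 to 8.52 CPM in HF_TZD_C, with a log2 fold change of -0.01 without the drug. For Ltf the HF_C libraries varied widely, with 1.29 ± 2.05 CPM (SD, n = 5).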

How the results depend on the processing

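Under rosiglitazone, 2387 genes passed, and 2094 to 3065 did so with RLE factors, DESeq2, other filters, equal depth, all 24 libraries in 1 fit or a replicate block. Library totals alone gave 3656 (740 higher, 2916 lower), and a fold of at least 1 on the log2 scale gave 524 (253 and 271). With single libraries left out, counts were 1569 to 2695 (863 to 1409 higher, 706 to 1286 lower). Without the drug, 152 genes became 387 by DESeq2 (204 and 183), 90 with all 24 libraries (30 higher), and 64 to 186 with libraries left out (20 to 104 higher, 41 to 98 lower). The 376 genes of the difference became 725 by DESeq2 (420 and 305), 202 with all 24 libraries (124 and 78), 236 with the replicate block (139 higher), and 191 to 467 with libraries left out (111 to 288 higher, 80 to 179 lower). Library totals gave 387 with a more negative effect. Causes were not tested.

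The replicate block paired mice that share only a number: same-numbered deviations correlated at -0.115 to 0.195 and no library matched its own number best. The depth difference of -3.65 M reads was -4.52 to -3.02 M with libraries left out. Scd1 (0.05) turned to -0.12 under library totals, and was -0.03 to 0.15 with libraries left out (-0.03 without HF_TZD_KO 3, -0.0 without HF_TZD_KO 4), and Cpt1a to -0.04 under library totals. Of 215 named genes that passed, none reversed, and 40 lost the call in some alternative, 17 of them only with a library left out. Low counts limit genes near 1 CPM.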

Other observations

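Glucose and fructose metabolism moved in both directions, with 7 of 26 genes higher and 6 lower (background 8.53% and 7.81%). Ketohexokinase Khk rose by 0.85 on the log2 scale and the fructose carrier Slc2a5 by 1.11. Hk2, the hexokinase of muscle and fat, fell from 25.5 to 32.3 CPM in the controls to 3.08 to 7.95 CPM (-2.23, adjusted p = 2.5e-05), and pyruvate carboxylase Pcx fell by 0.87. Of 25 cell cycle genes 8 were lower and none higher. Mki67, a marker of dividing cells, was 4.51 to 11.5 CPM against 11.8 to 17.3 CPM (-0.80, adjusted p = 0.0163).

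Of 24 genes of endoplasmic reticulum stress, 5 were lower (20.8%) and 1 higher (4.17%), against 7.81% and 8.53% of all genes. Trib3 (-0.97), Chac1 (-1.26) and Asns (-1.24), known targets of the stress factor ATF4, fell, while Herpud1 rose from 189 to 241 CPM in the controls to 299 to 456 CPM (0.89, adjusted p = 0.00034). Of 19 circadian clock genes 7 were higher (36.8%), among them Per2 (0.68) and Cry2 (0.47), while Arntl (0.02) and Clock (0.10) did not pass. The list gave 3 or 4 calls when HF_TZD_C 1, 2 or 5 or HF_TZD_KO 3 was left out, and 2 under scaling by library totals. The time of day of collection is not given in the sources used here. Of 26 acute phase genes 7 were higher (26.9%) and 2 lower (7.69%, about the share of all genes), and 5 of the list passed without HF_TZD_C 5. Serpina3m rose by 1.38 and Orm3 fell by 1.41. Among 25 secreted hepatokines and growth factors, 6 were higher (24.0%) and 1 lower (4.0%), with Lect2 (0.95), Fetub (0.79) and Tsku (-0.61) as examples. Of 24 genes of the NRF2 antioxidant response none was higher and 3 were lower (12.5%, against 7.81% of all genes), the glutathione peroxidases Gpx4 (-0.79) and Gpx1 (-0.61) and the pentose phosphate enzyme Taldo1 (-0.49).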
